A study of Homo sapiens with 9 samples.

Results

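The genes described here are 38 genes of DNA break repair and of the checkpoints that break repair reports to. They were chosen by symbol in GENCODE release 44 out of the 62700 genes of the deposited table, by a rule on names and not on levels although results of these data were already known, and fall into 5 routes: 10 genes of strand exchange in homologous recombination, 6 of end resection, 11 of the Fanconi route, 5 of checkpoint signalling and 6 of end joining. RNA was sequenced from HAL-01, an established human cell line of precursor B cell leukemia (B-ALL) driven by TCF3::HLF, a fusion transcription factor. All 9 libraries came from cells that stably expressed Cas9 and GFP, were collected on day 13, and fall into 3 groups of 3 with the replicate numbers 1, 3 and 4. The sgRNA_96 and sgRNA_97 groups received a guide against the fusion-bound enhancer of MEF2C and share the genotype MEF2C Enhancer KO in the labels, and the SCR1 group received a scrambled guide and serves as the control. The model is 1 cell line. Which share of its cells was edited was not analysed here, and nothing in the labels says that replicates were separate cultures, so p-values measure the spread between these libraries, which may be technical.

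A break of both DNA strands can be joined directly, by proteins that hold the ends and ligate them, or copied back from the sister chromatid by homologous recombination, for which the ends are first cut back and then invade the intact duplex. The Fanconi route unhooks DNA strands that are linked to each other and hands the resulting breaks to recombination. The kinases ATM and ATR detect breaks and stalled forks and act through CHEK2 and CHEK1 to hold the cell cycle. Many recombination and Fanconi genes are transcribed mainly in dividing cells around S phase, and developing B cells also need end joining to complete the rearrangement of their immunoglobulin genes.

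Library depth ran from 15212462 to 29777361 estimated counts, with SCR1 replicate 1 the deepest. The first principal component (22.1% of the variance) separated the 6 KO libraries from the 3 controls, while the second (15.3%) set sgRNA_96 replicate 1 and sgRNA_97 replicate 1 apart at opposite ends. MEF2C itself, the gene the enhancer contacts, was at 559.6, 559 and 536 CPM in SCR1 (estimated counts per scaled library total of 1000000), 495, 498 and 510.1 CPM with sgRNA_96 and 553, 505 and 495 CPM with sgRNA_97, and did not pass the test (log2 fold change −0.12, SE 0.042, adjusted p = 0.0620 in edgeR). It was below every control in 5 of the 6 KO libraries, and passed the test without the remaining library, sgRNA_97 replicate 1 (log2 fold change −0.14, adjusted p = 0.0141). All 8 B-ALL markers were tested and none was called, at a summed level of 2976 to 3164 TPM in SCR1 and 2633 to 3098 TPM in KO. Of these, IGLL1 (−0.18) was called without sgRNA_96 replicate 1 (adjusted p = 0.0159) and VPREB1 (0.15) without sgRNA_96 replicate 4 (adjusted p = 0.0202). Among markers of other cells, the 3 CD3 genes, ELANE, ALAS2, HBG1, COL1A2, COL3A1 and DCN were listed at 0 in every library, and CD2, CD14, LYZ, KLF1 and COL1A1 were too low to be tested. Of those at a measurable level, TRAC fell (log2 fold change −0.24, SE 0.059, adjusted p = 0.00994), MPO rose from 2.75 ± 0.164 CPM to 5.82 ± 1.19 CPM (log2 fold change 1.08, SE 0.19, adjusted p = 0.000894), and CSF1R (−0.21) and PDGFRB (−0.13) were not called.

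In the enhancer KO, 17 of the 38 repair and checkpoint genes were lower than in SCR1 and 3 were higher. This was 44.7% lower, against 10.6% of the 14436 genes tested, and 7.89% higher, against 10.1%. The genes that fell were the recombination genes XRCC3, XRCC2, RAD54L, BRCA1, EXO1, BLM and RBBP8, the Fanconi genes FANCA, FANCC, FANCD2, FANCE, FANCG and FANCI, the checkpoint kinase gene CHEK1, and the end joining genes XRCC4, XRCC5 and XRCC6. The genes that rose were ATM, LIG4 and FANCL. Called members moved by a median of 0.24 on the log2 scale in either direction, and the largest change of any member was 0.48. The median log2 fold change of the 38 genes was −0.14, and that of all genes tested was 0.0028. Calls are at an adjusted p under 0.05 in edgeR's quasi-likelihood test, fitted over all genes with the 6 KO libraries as 1 group. The lower count was 10 without SCR1 replicate 1 (4.97% of all genes tested were lower in that fit) and 11 without SCR1 replicate 3 (8.73%), and the higher count was 5 without sgRNA_96 replicate 1 (11.7% higher). In bulk RNA, fewer cells that express a gene and less of its RNA per cell cannot be told apart.

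**Figure D1:**
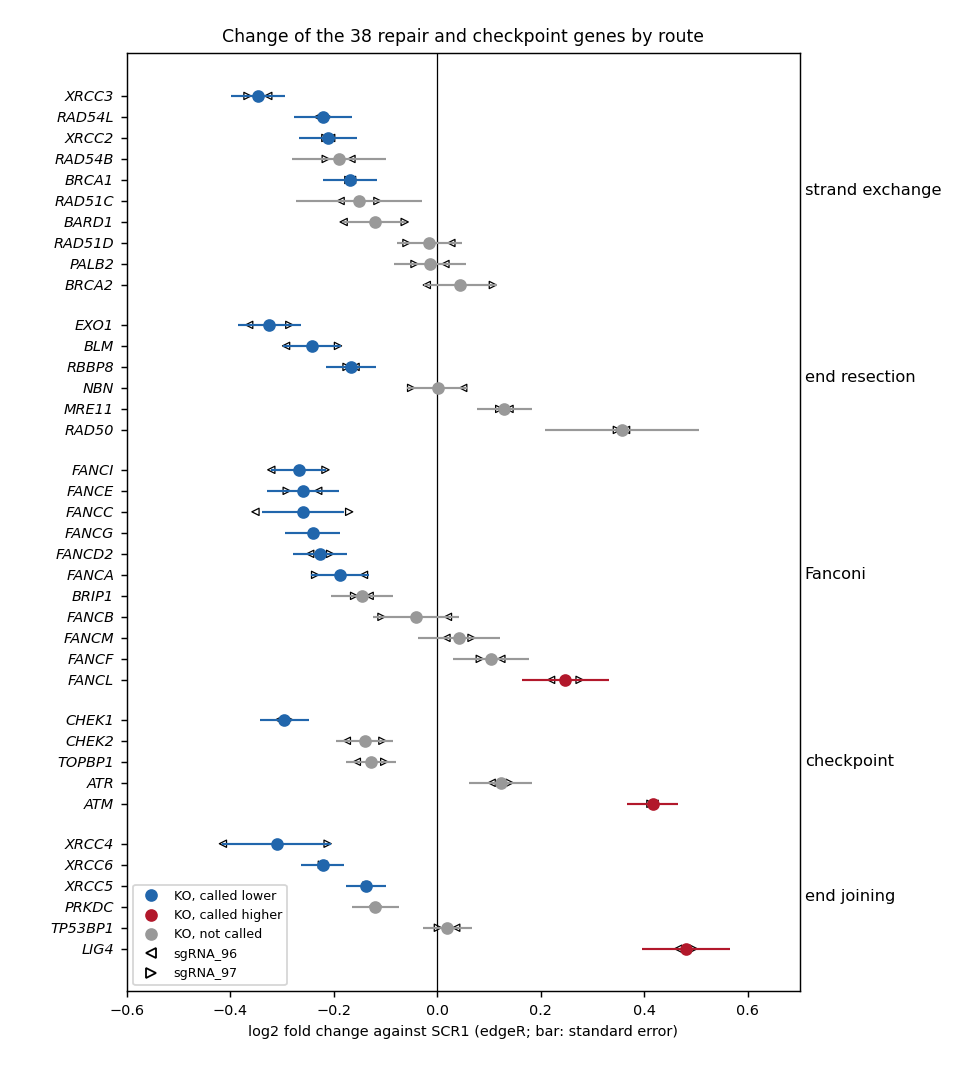
Log2 fold change of each of the 38 genes (x axis, log2 scale, against SCR1), grouped by route. Filled circles give the enhancer KO (6 libraries against 3) with its standard error, blue where called lower, red where called higher and grey where not called, and open triangles give each guide alone. The 17 blue circles lie between −0.35 and −0.14, and the 3 red ones are LIG4 at 0.48, ATM at 0.42 and FANCL at 0.25.

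The members were also counted by whether the KO and control libraries overlapped. For 16 members every KO library was below every control (42.1%, against 10.2% of all genes tested), and for 2 members, ATM and LIG4, every KO library was above every control (5.26%, against 10.1%). CHEK2 and TOPBP1 were among the 16 without passing the test, while BRCA1, RAD54L and XRCC4 passed it with some overlap. Relative to the mean of the controls, the median over all 38 genes was between −0.20 and −0.095 on the log2 scale in the 6 KO libraries. In the 3 control libraries it was between −0.035 and 0.039. The 38 genes together took 0.362 to 0.396% of all counts in the KO libraries and 0.3995 to 0.415% in the controls.

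**Figure D2:**
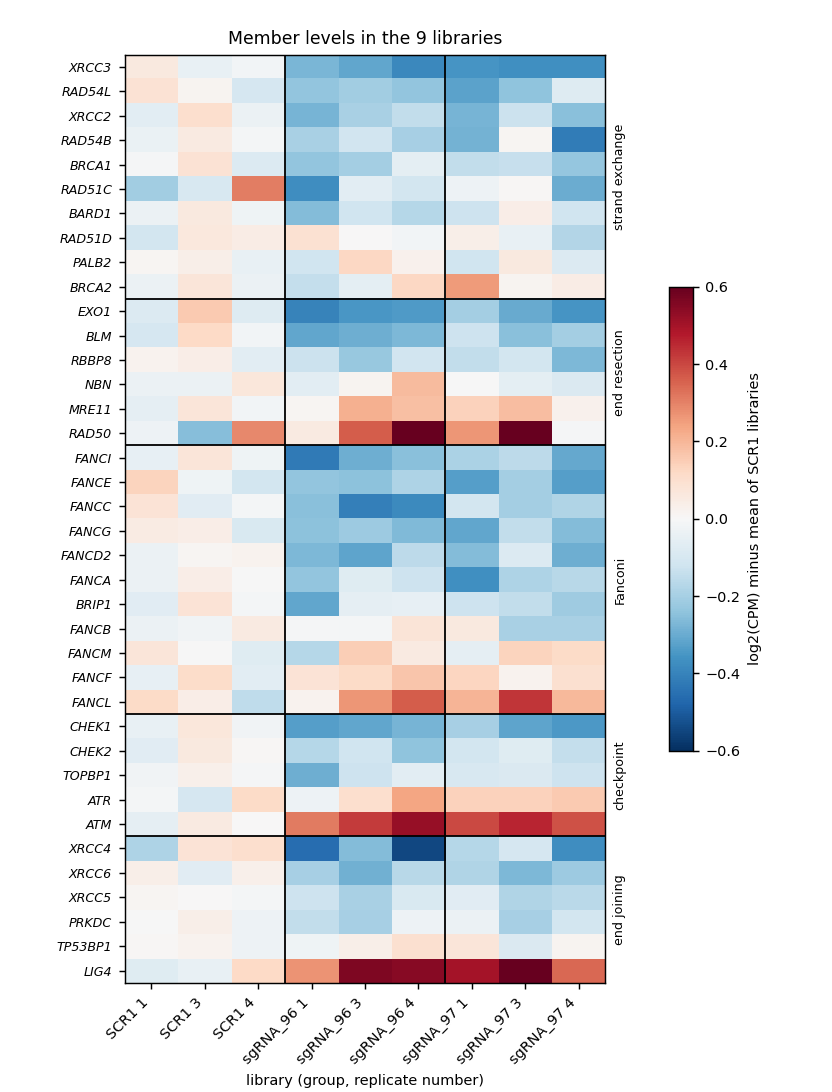
Log2(CPM) of each of the 38 genes (rows, by route) in each of the 9 libraries (columns), minus the mean of the 3 SCR1 libraries. Blue is below the controls and red above, and the colours end at −0.6 and 0.6. XRCC3, EXO1, CHEK1 and FANCI are blue in all 6 KO libraries, ATM and LIG4 are red in all 6, and RAD50 differs between libraries of the same guide.

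The promoters of the members were searched for the letters of the E2F site, the element through which E2F factors act on many S phase genes. Windows of 250 bases before to 50 bases after the start site (RefSeq, GRCh38.p14) were given for 33 of the 38 members. An E2F site was taken as TTTCCCGC, TTTGGCGC, TTTGCCGC or TTTCGCGC on either strand. It was present in 6 of the 15 genes called lower that had a window (40.0%), in 0 of the 3 called higher and in 1 of the 15 not called (6.67%). It was present in 3.99% of all 27305 genes with a promoter window and in 6.92% of the 10105 tested genes among them. A gene counted once where any of its start sites held a match. The matches are shown because they are the stretches behind these counts, each read 5′ to 3′ on the strand of the gene, with the matched letters in capitals (in GRCh38.p14).
EXO1 (chr1:241848198-241848225, plus strand): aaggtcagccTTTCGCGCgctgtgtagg
FANCA (chr16:89816802-89816829, minus strand): ctacaccgcgGCGGCAAAgccaaacgca
FANCC (chr9:95317738-95317765, minus strand): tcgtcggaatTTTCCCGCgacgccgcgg
FANCC (chr9:95317864-95317891, minus strand): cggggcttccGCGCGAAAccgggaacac
FANCD2 (chr3:10026425-10026452, plus strand): gtcgggcctgGCGGGAAAgtcgaaaact
TOPBP1 (chr3:133661931-133661958, minus strand): cgcgcggttgGCGCGAAAgtcggttccc
XRCC2 (chr7:152676103-152676130, minus strand): ggcgttggtgGCGGGAAAgttgagtctc
XRCC6 (chr22:41621327-41621344, plus strand): tcgcttccctGCGCCAAA
In FANCD2 and TOPBP1 the match spanned the start site itself, and in EXO1 it began 4 bases after it. The site of FANCC nearer the start began 46 bases before it, and the other lay 172 bases before it, as did that of FANCA. The match in XRCC2 began 21 bases and that in XRCC6 42 bases after the start. The CCAAT box (CCAAT, either strand) was in 8 of the 15 genes called lower (53.3%), against 43.6% of tested genes. The CHR element (TTTGAA or TTCGAA, either strand) was in 1 of these 15 genes, FANCC (6.67%), against 15.3%. A match is a run of letters and not a bound site.

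In control cells the members spanned a wide range of levels per length of transcript. XRCC6 (337 ± 8.57 TPM) and XRCC5 (233 ± 8.23 TPM), the Ku subunits that cap broken ends, and their partner kinase gene PRKDC (111 ± 4.16 TPM) were the most abundant. FANCI (89.02 ± 6.84 TPM), TOPBP1, RBBP8, CHEK1, FANCA and RAD54L followed. LIG4 (6.73 ± 0.878 TPM), FANCB (7.01 ± 1.28 TPM), RAD50 (7.07 ± 1.07 TPM) and FANCF (7.09 ± 0.631 TPM) were the lowest, and their values did not separate beyond their SDs. TPM in this paragraph is the sum over a gene's transcripts, given as mean ± SD of the 3 SCR1 libraries. The genes that fell in KO had a median of 37.9 TPM in SCR1, those not called 16.7 TPM and all genes tested 13.2 TPM.

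Among the strand exchange genes, 4 of 10 fell (40%) and none rose, with a median log2 fold change of −0.16. Of all genes tested 10.6% fell and 10.1% rose, the shares to set beside this and each route count below. In what follows, the 3 values of a group are those of replicates 1, 3 and 4, and sgRNA_96 comes before sgRNA_97. XRCC3, which forms a complex with RAD51C, changed most. It was at 51.7, 48.2 and 49.2 CPM in SCR1, 41.04, 40.03 and 37.98 CPM with sgRNA_96 and 38.8, 38.5 and 38.4 CPM with sgRNA_97, so that the groups were apart by more than their spread. Its level fell by 21.3% (log2 fold change −0.35, SE 0.052, adjusted p = 0.000246). RAD54L encodes a motor protein that acts while the broken strand invades the sister duplex. RAD54L was at 94.00, 89.4 and 82.4 CPM in SCR1, against 75.02, 76.6 and 75.1 CPM and 70.7, 74.9 and 83.98 CPM with the guides. Only sgRNA_97 replicate 4 reached into the control range (log2 fold change −0.22, SE 0.056, adjusted p = 0.0114). XRCC2, which pairs with RAD51D in a complex of recombination, was at 54.8, 61.3 and 55.8 CPM in SCR1, 47.2, 49.95 and 51.6 CPM with sgRNA_96 and 47.2, 52.3 and 48.05 CPM with sgRNA_97, with no overlap (log2 fold change −0.21, SE 0.056, adjusted p = 0.0142). BRCA1, the scaffold that commits ends to recombination, was at 103, 109.9 and 97.8 CPM in the controls and 87.8, 89.8 and 99.3 CPM and 93.5, 94.1 and 88.1 CPM in the KO groups. Its sgRNA_96 replicate 4 lay within the control range (log2 fold change −0.17, SE 0.052, adjusted p = 0.0301).

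The other 6 strand exchange genes did not pass the test. They were RAD54B, a relative of RAD54L (−0.19), RAD51C (−0.15), BARD1, the partner of BRCA1 (−0.12), RAD51D (−0.015), PALB2, which links BRCA1 to BRCA2 (−0.013), and BRCA2, a mediator of strand exchange (0.045). Of these, RAD54B and BARD1 were below every control in 5 of 6 KO libraries. The fold changes of BRCA2, PALB2, RAD51C and RAD51D changed sign under other processing or with a library left out. Single libraries also decided some calls of the route. XRCC2 had adjusted p = 0.0876 without SCR1 replicate 3, and RAD54L had 0.0972 without SCR1 replicate 1 (edgeR). BRCA1 had adjusted p = 0.0933 without SCR1 replicate 1 and 0.151 without SCR1 replicate 3. It also had 0.0564 without sgRNA_96 replicate 3 and 0.0589 without sgRNA_97 replicate 4. The count of 4 became 2 without SCR1 replicate 1 or 3. With an offset for transcript length the fold change of XRCC3 was −0.18 (adjusted p = 0.261 in edgeR) and that of BRCA1 −0.090 (adjusted p = 0.395). Neither passed the test, nor did RAD54L (−0.26, adjusted p = 0.0551), while XRCC2 did (−0.23, adjusted p = 0.0435).

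In end resection 3 of 6 genes fell, none rose, and the median log2 fold change was −0.083. EXO1, an exonuclease that cuts back a single strand of the end, was at 62.7, 73.9 and 62.9 CPM in SCR1, 50.2, 52.05 and 52.5 CPM with sgRNA_96 and 57.6, 53.8 and 51.97 CPM with sgRNA_97. The highest KO library stayed below the lowest control, and the level fell by 20.1% (log2 fold change −0.32, SE 0.061, adjusted p = 0.00144). BLM, the helicase that works beside EXO1, was at 75.5, 87.98 and 80.1 CPM in SCR1 and 65.3, 66.1 and 67.2 CPM with sgRNA_96, and came closest to the controls with sgRNA_97 at 74.4, 68.2 and 70.4 CPM (log2 fold change −0.24, SE 0.056, adjusted p = 0.00669). RBBP8, which encodes CtIP and starts resection with MRE11, was at 118, 119 and 111 CPM in the controls against 106, 99.1 and 107 CPM and 105, 107 and 96.2 CPM. These values did not overlap either (log2 fold change −0.17, SE 0.048, adjusted p = 0.0216).

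The 3 subunits of the MRN complex, the sensor that binds the end before resection, showed no call. MRE11, its nuclease, was at 109, 119 and 111 CPM in SCR1, 114, 131 and 128 CPM with sgRNA_96 and 124, 128 and 115 CPM with sgRNA_97 (log2 fold change 0.13, SE 0.054, adjusted p = 0.0994). RAD50, the subunit that tethers ends, had the widest spread of the route and a fold change of 0.36 (SE 0.15, adjusted p = 0.103 in edgeR). Its libraries ranged from 21.7 to 31.6 CPM in SCR1 and from 25.8 to 43.00 CPM in KO. NBN, the subunit that binds ATM, was at a log2 fold change of 0.0011. Without sgRNA_96 replicate 1, MRE11 (adjusted p = 0.0361) and RAD50 (log2 fold change 0.41, adjusted p = 0.0447) would count as higher. RAD50 was called higher in 6 of the 21 alternatives, among them no filter on low counts (adjusted p = 0.000794), the transcript length offset (0.0151) and limma on log2(TPM + 1) (0.03303). Its fold change ranged from 0.25 without SCR1 replicate 3 to 0.73 on protein-coding transcripts only. The call of RBBP8 was lost without SCR1 replicate 1 (adjusted p = 0.101) or 3 (adjusted p = 0.0856). It was also lost with the offset for transcript length (log2 fold change −0.073, adjusted p = 0.584 in edgeR). On transcripts annotated as protein coding, which held 48.1 to 67.3% of the BLM counts in SCR1 and 53.8 to 78.7% in KO, the fold change of BLM was −0.0090 (adjusted p = 0.9704), and RBBP8 also lost its call (0.0527).

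The Fanconi route held the largest number of falls, 6 of 11 genes, with 1 rise and a median log2 fold change of −0.19. The pair that the route marks with ubiquitin fell together. FANCI was at 227, 248 and 231 CPM in SCR1, 175, 192 and 197 CPM with sgRNA_96 and 206, 211 and 190.2 CPM with sgRNA_97, a fall of 16.9% with no overlap (log2 fold change −0.27, SE 0.053, adjusted p = 0.00238). FANCD2, its partner, was at 113, 117 and 118 CPM in SCR1, 96.2, 93.00 and 104 CPM with sgRNA_96 and 96.6, 109 and 94.6 CPM with sgRNA_97, again without overlap (log2 fold change −0.23, SE 0.053, adjusted p = 0.00661). The rest of the falls were in the core complex that carries out the marking. FANCG was at 63.01, 62.6 and 57.1 CPM in SCR1, 51.3, 52.4 and 50.7 CPM with sgRNA_96 and 49.04, 54.95 and 50.8 CPM with sgRNA_97 (log2 fold change −0.24, SE 0.053, adjusted p = 0.00436). FANCE was at 31.1, 27.9 and 26.3 CPM in the controls against 24.02, 23.9 and 24.9 CPM and 22.6, 24.6 and 22.6 CPM (log2 fold change −0.26, SE 0.070, adjusted p = 0.0150). In both genes every KO library was below every control. FANCA (log2 fold change −0.19, SE 0.056, adjusted p = 0.0266) and FANCC (log2 fold change −0.26, SE 0.079, adjusted p = 0.0289), further core subunits, fell as well and did not overlap with the controls.

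FANCL, the ubiquitin ligase of the core complex, was called higher at a value close to the threshold. Chosen for display after its values were seen, it was at 32.5, 30.9 and 26.99 CPM in SCR1, 30.5, 36.1 and 38.6 CPM with sgRNA_96 and 34.5, 40.4 and 34.4 CPM with sgRNA_97 (log2 fold change 0.25, SE 0.084, adjusted p = 0.0469). The lowest KO library, sgRNA_96 replicate 1, lay within the control range. FANCL has 156 annotated transcripts, and only 20.5 to 40.7% of its counts in SCR1 and 15.4 to 26.6% in KO fell on those annotated as protein coding. On these transcripts alone its direction turned (log2 fold change −0.22, adjusted p = 0.568). The call was lost when any library but sgRNA_96 replicate 1 was left out, with adjusted p from 0.0554 (without sgRNA_97 replicate 1) to 0.2401 (without SCR1 replicate 4). BRIP1, a helicase bound by BRCA1 (−0.15), FANCB (−0.041), FANCM, which anchors the core complex to DNA (0.042), and FANCF (0.10) did not pass the test. Without SCR1 replicate 1 the count of falls in the route was 3, since FANCE (adjusted p = 0.1402), FANCA (0.0618) and FANCC (0.159) lost their calls. On protein-coding transcripts only, FANCD2 (adjusted p = 0.243), FANCG (0.116) and FANCA (0.0517) lost theirs. With the offset for transcript length, FANCC kept its call (adjusted p = 0.0344 in edgeR). FANCI (0.0519), FANCE (0.0644), FANCG (0.142), FANCD2 (0.223) and FANCA (0.251) lost theirs in that fit. FANCA also lost its call without SCR1 replicate 3 (adjusted p = 0.09796) or 4 (0.0814), and FANCC without SCR1 replicate 4 (0.0747), sgRNA_96 replicate 3 (0.0578) or sgRNA_96 replicate 4 (0.0547).

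The checkpoint genes held the strongest call of all 38, and it was a rise. ATM, the kinase that answers broken ends, was at 155, 167 and 161 CPM in SCR1, 199.7, 215 and 231 CPM with sgRNA_96 and 212, 221 and 209 CPM with sgRNA_97. The lowest KO library was above the highest control by more than the spread of the controls, and the level was 1.33-fold that of SCR1 (log2 fold change 0.42, SE 0.048, adjusted p = 2.65e-05). Its count included 13 transcripts with 1% or more of the total, and the share on protein-coding ones did not separate the groups (60.6 to 68.6% in SCR1, 61.0 to 64.6% in KO). CHEK1, the kinase that ATR activates at stalled forks, moved the other way. CHEK1 was at 88.2, 95.3 and 89.8 CPM in SCR1, 72.5, 73.4 and 75.03 CPM with sgRNA_96 and 79.3, 73.1 and 71.6 CPM with sgRNA_97, without overlap, a fall of 18.5% (log2 fold change −0.30, SE 0.047, adjusted p = 0.000435). It overlaps STT3A, an abundant neighbour, on the same strand. TOPBP1, which switches on ATR, was at 183, 189 and 185 CPM in SCR1 against 152, 170.4 and 177 CPM and 173, 175 and 170.4 CPM (log2 fold change −0.13, SE 0.048, adjusted p = 0.0708). CHEK2, the kinase below ATM, was at 42.7, 46.6 and 44.9 CPM in SCR1 against 39.7, 41.2 and 37.8 CPM and 41.4, 42.5 and 40.5 CPM (log2 fold change −0.14, SE 0.055, adjusted p = 0.0856). All KO libraries of both genes lay below the controls without a call. ATR itself was at a log2 fold change of 0.12 (adjusted p = 0.167 in edgeR). In this route the 2 calls were kept in each fit that left out 1 library.

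In end joining 3 of 6 genes fell and 1 rose, with a median log2 fold change of −0.13. XRCC6, which encodes the Ku70 subunit, was at 521, 485 and 519 CPM in SCR1, 442, 416 and 452 CPM with sgRNA_96 and 448, 422 and 437 CPM with sgRNA_97. All KO libraries were below all controls, and the level fell by 14.2% (log2 fold change −0.22, SE 0.041, adjusted p = 0.00131). XRCC5, which encodes its partner Ku80, was at 567, 563 and 558 CPM in SCR1, 516, 491 and 527 CPM with sgRNA_96 and 536, 496 and 502 CPM with sgRNA_97, and fell by 9.08% without overlap (log2 fold change −0.14, SE 0.039, adjusted p = 0.0192). LIG4 and XRCC4 encode the ligase of the route and the protein that holds it, and they moved in opposite directions. LIG4 was at 19.6, 19.9 and 22.3 CPM in SCR1, 24.8, 30.3 and 30.00 CPM with sgRNA_96 and 29.1, 31.7 and 26.1 CPM with sgRNA_97, all KO libraries above all controls, a rise of 39.5% (log2 fold change 0.48, SE 0.085, adjusted p = 0.000941). XRCC4 was at 14.8, 17.8 and 18.01 CPM in SCR1 against 12.2, 14.01 and 11.5 CPM and 14.9, 15.6 and 12.9 CPM, and sgRNA_97 replicates 1 and 3 lay within the control range (log2 fold change −0.31, SE 0.10, adjusted p = 0.0454).

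PRKDC, the kinase that Ku recruits (−0.12, adjusted p = 0.0730 in edgeR), and TP53BP1, which shields ends from resection (0.019), were not called. PRKDC passed the threshold in 6 of the 21 alternatives. These were DESeq2 (adjusted p = 0.0426) and 5 edgeR fits. In edgeR it passed with an offset for a trend over transcript length (log2 fold change −0.24, adjusted p = 0.000414) or over GC (0.0136). It also passed without sgRNA_96 replicate 4 (0.0433), without sgRNA_97 replicate 1 (0.0392) and without both KO libraries apart on the second component (0.0412). The call of XRCC5 depended on the controls (adjusted p = 0.0859, 0.0534 and 0.0604 in edgeR without SCR1 replicate 1, 3 or 4). That of XRCC4 was lost in 6 of the 9 fits that left out 1 library, with adjusted p from 0.0619 without sgRNA_96 replicate 3, through 0.06296 without sgRNA_96 replicate 1, 0.0758 without sgRNA_97 replicate 4, 0.0812 without sgRNA_96 replicate 4 and 0.148 without SCR1 replicate 3, to 0.188 without SCR1 replicate 4. On protein-coding transcripts only it was also lost (adjusted p = 0.132). With the offset for transcript length, XRCC4 (adjusted p = 0.134 in edgeR) and XRCC5 (0.0966) lost their calls as well. The count of falls in the route was 1 without SCR1 replicate 3 or 4.

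**Figure D3:**
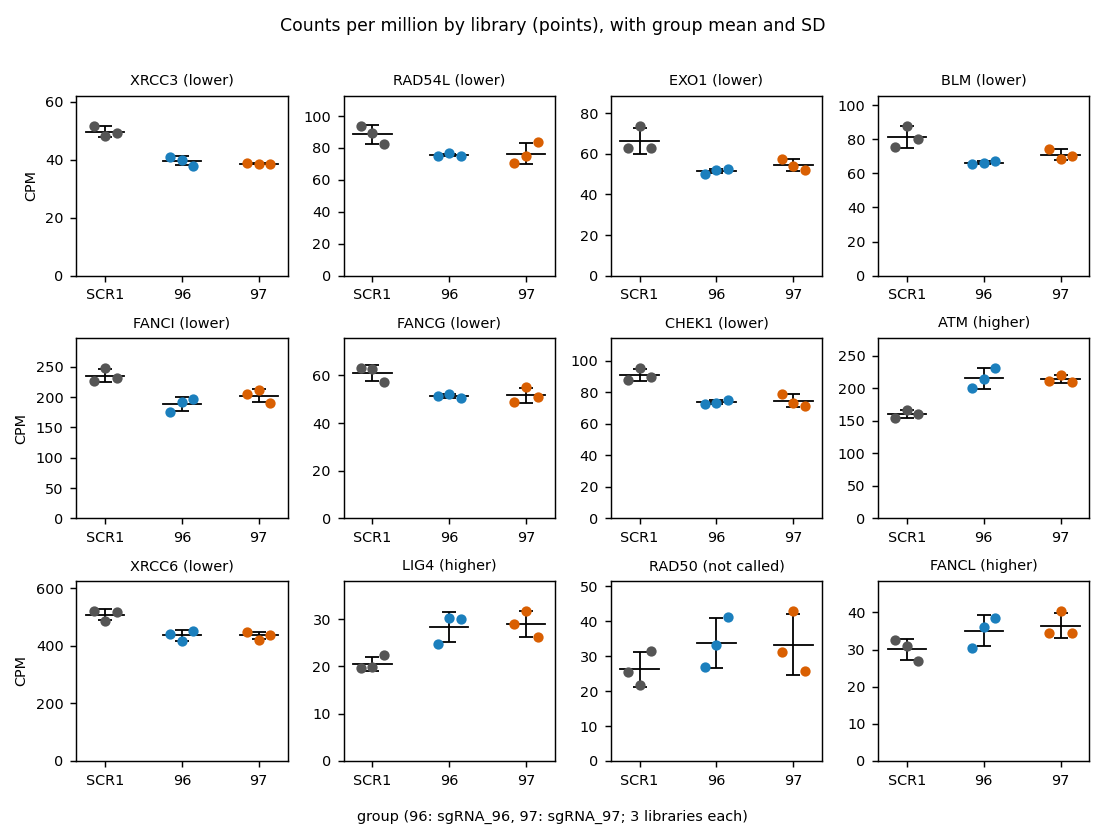
CPM (y axis, from 0) in the 9 libraries for 12 of the genes, with the call of enhancer KO against SCR1 in each title. Points are libraries, and lines and bars give the mean and SD of the 3 libraries of a group. The KO points of XRCC3, EXO1, FANCI, CHEK1 and XRCC6 lie below all control points, those of ATM and LIG4 lie above them, and those of RAD50 and FANCL overlap with the controls.

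With each guide taken alone, in a fit of all 9 libraries with 3 groups, 11 of 38 genes fell with sgRNA_96 (28.9%, against 5.41% of all genes tested) and 2 rose (5.26%, against 5.78%). With sgRNA_97, 11 fell (28.9%, against 7.76%) and 2 rose (5.26%, against 7.35%). Both comparisons use the same 3 control libraries, so their values are only set side by side. ATM had a log2 fold change of 0.42 with sgRNA_96 and 0.41 with sgRNA_97, and LIG4 had 0.47 and 0.50. XRCC3 had −0.33 and −0.37, CHEK1 −0.31 and −0.29, EXO1 −0.36 and −0.29, and FANCI −0.32 and −0.22. These 6 genes passed the test with each guide. So did RAD54L (−0.23 and −0.21), FANCD2 (−0.25 and −0.21), FANCG (−0.24 and −0.24) and XRCC6 (−0.22 and −0.22). XRCC4 (−0.41 and −0.21), FANCC (−0.35 and −0.17) and BLM (−0.29 and −0.19) passed with sgRNA_96 alone. FANCA (−0.14 and −0.24), FANCE (−0.23 and −0.29) and XRCC2 (−0.20 and −0.22) passed with sgRNA_97 alone. BRCA1, RBBP8, XRCC5 and FANCL passed only with both guides pooled.

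The difference between the guides was tested directly in the same fit. None of the 38 genes was called (0%, against 0.0208% of all genes tested). As almost no gene was called, this count does not set the members apart. In edgeR 0 had an unadjusted p under 0.05, the lowest being 0.0546 in FANCC, and DESeq2 and limma called 0 as well. With 3 libraries in each guide group, the absence of a call does not show that the guides had equal effects. The member differences of sgRNA_97 minus sgRNA_96 ran from −0.13 in FANCB to 0.20 in XRCC4 on the log2 scale. Single libraries moved the counts of the guides. With sgRNA_96 the count of falls was 6 without sgRNA_96 replicate 3 or SCR1 replicate 1 and 7 without sgRNA_96 replicate 4 or SCR1 replicate 3. The count of rises there was 4 without sgRNA_96 replicate 1 and 1 without sgRNA_96 replicate 3. With sgRNA_97 the count of falls was 4 without SCR1 replicate 3, 5 without sgRNA_97 replicate 4, 6 without SCR1 replicate 1, and 7 without SCR1 replicate 4 or sgRNA_97 replicate 1. Shares of all genes called with single guides in these fits are not given here.

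Of 79 other genes of the same routes, all tested, 23 fell (29.1%, against 10.6% of all genes tested) and 2 rose (2.53%, against 10.1%). Their median log2 fold change was −0.13. PSMC3IP, a cofactor of strand exchange, was among the genes that fell (log2 fold change −0.32, SE 0.072, adjusted p = 0.00511 in edgeR). Of the 23 further recombination genes 7 fell (30.4%). Of the 13 further Fanconi genes 5 fell (38.5%) and 2 rose (15.4%), the nuclease genes FAN1 (0.26) and ERCC4 (0.28). FAN1 and ERCC4 were named after their values were seen. CENPX, a partner of FANCM, fell too (log2 fold change −0.36, SE 0.069, adjusted p = 0.00188).

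The further checkpoint and break signalling genes fell in 9 of 25 cases (36%, against 10.6% of all genes tested). CDC25A, the phosphatase that CHEK1 marks for destruction, was at 96.6, 95.05 and 86.9 CPM in SCR1, 72.6, 70.5 and 73.4 CPM with sgRNA_96 and 73.9, 68.4 and 71.4 CPM with sgRNA_97, without overlap (log2 fold change −0.37, SE 0.048, adjusted p = 6.34e-05). CLSPN, the adaptor through which ATR reaches CHEK1 (log2 fold change −0.36, SE 0.055, adjusted p = 0.000311), and TIMELESS, a fork protection gene (log2 fold change −0.24, SE 0.042, adjusted p = 0.000932), fell too. H2AX, the histone that ATM phosphorylates around a break, was lower (log2 fold change −0.32, SE 0.082, adjusted p = 0.0116). Its call was lost in 5 of the 21 alternatives, among them the fit without SCR1 replicate 4 (adjusted p = 0.0881). The call of TIMELESS was lost in 4 of them and that of CLSPN in 1. In end joining, 2 of 18 further genes fell (11.1%, near the 10.6% of all genes tested), MAD2L2, a subunit of the shieldin complex (log2 fold change −0.38, SE 0.058, adjusted p = 0.000309), and XRCC1, a scaffold of single-strand break repair (log2 fold change −0.23, SE 0.046, adjusted p = 0.00208). PARP1, which senses nicks (−0.079), and POLQ, the polymerase of microhomology-mediated joining (−0.062), were not called. The count of 23 was 15 without SCR1 replicate 1 (4.97% of all genes tested were lower in that fit) and 13 without SCR1 replicate 3 (8.73%). The count of 2 was 6 without sgRNA_96 replicate 1 (11.7% of all genes tested were higher). It was 0 without SCR1 replicate 1 (5.58%) and 1 without SCR1 replicate 4 (6.44%).

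Markers of the cell cycle moved with these genes. Of 33 S phase markers that are in none of the repair lists, 29 fell (87.9%, against 10.6% of all genes tested) and 0 rose. Their median log2 fold change was −0.29. Their summed level was 3804 to 4007 TPM in SCR1 and 3078 to 3319 TPM in KO, and none of the 33 was at 0. GINS2 (−0.50) and CDC6 (−0.49), both of the replication origin machinery, had the smallest adjusted p. Of 52 tested G2/M markers out of 53, 27 fell (51.9%) and 0 rose. Their median was −0.14, with a summed level of 6298 to 6460 TPM in SCR1 and 5629 to 5827 TPM in KO. TUBB4B (−0.40) and RANGAP1 (−0.35) led this list. Of 18 regulators of the E2F and DREAM system 6 fell (33.3%) and 3 rose (16.7%, against 10.1% of all genes tested). MYBL2 (−0.51) and E2F2 (−0.27) had the strongest calls. The 38 repair and checkpoint genes had a summed level of 1634 to 1693 TPM in SCR1 and 1434 to 1597 TPM in KO. The part of the S phase and G2/M markers in the fall of the repair genes was not tested.

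**Figure D4:**
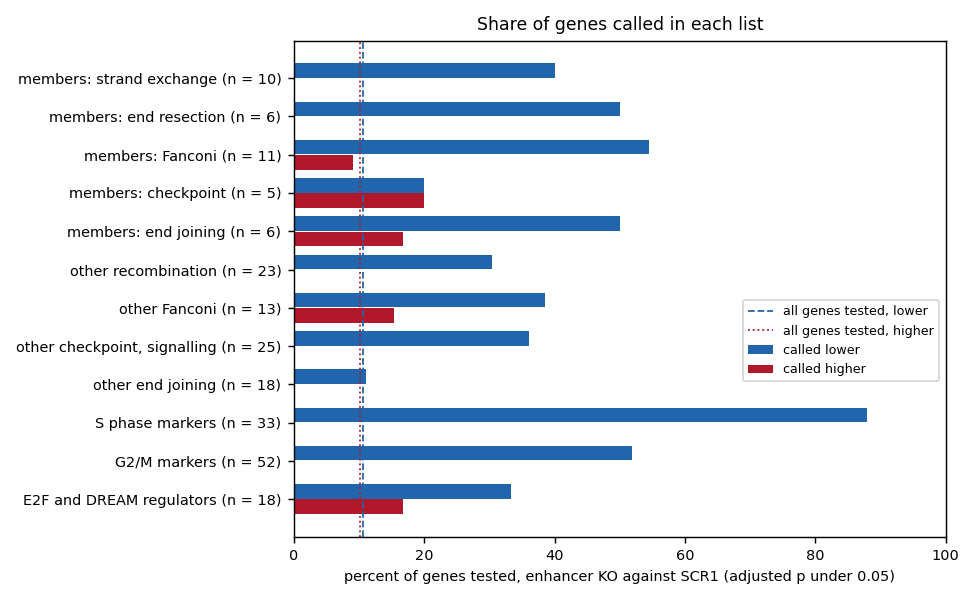
Percent of the tested genes of each list called lower (blue bars) or higher (red bars) in the enhancer KO, with the number of genes tested in each label. Dashed and dotted lines give the shares among all genes tested, 10.6% lower and 10.1% higher. The S phase markers have the longest blue bar, and the 5 member routes are at or above the dashed line, from the checkpoint genes up to the Fanconi genes at 54.5% lower.

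The genes that fell and those that rose had different medians, with overlapping ranges, in properties that no rule used. The median GC content of the transcripts was 43.1% in the 17 genes that fell, 37.4% in the 3 that rose, 39.8% in the 18 not called and 48.5% in all genes tested. Median transcript length was 3202 bases in the genes that fell, 4289 bases in those that rose, 5323 bases in those not called and 2640 bases in all genes tested. GC content ran from 36.1 to 62.3% in the genes that fell and from 36.7 to 39.0% in the 3 that rose. Length ran from 1567 to 6039 bases in the genes that fell and from 4105 to 10558 bases in those that rose. These are descriptions of the members with no test.

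The number of falls depended on how the values were made. It was 19 in DESeq2 (11.9% of all genes tested were lower there), 20 with an offset for a trend over transcript length (9.57%) and 22 with an offset for a trend over GC (13.2%). It was 11 on protein-coding transcripts only, where 7.45% of all genes tested were lower, and 6 with an offset for each library's mean transcript length, where 5.17% were. In limma on log2(TPM + 1) it was 4 of the 38 members, where 4.36% of all genes tested were lower. Fold changes on that scale are smaller than on TPM itself for low genes. The count was also 4 of the 38 on log2(TPM + 0.1), where 4.3% of all genes tested were lower. In each of these fits the share of the 38 members called lower was above the share of all genes tested. The cause of the drop in the count was not tested. ATM and XRCC6 were called in the same direction in all 21 alternatives, while EXO1, CHEK1 and LIG4 were called in all but limma on TPM with no filter on low values (adjusted p = 0.0775, 0.05800 and 0.0957). Some counts could be shared between features. Overlapping genes are named here where their mean count was at least 10% of the member's. BRCA1, RAD50, RAD54B and CHEK1 overlap such a gene on the same strand. XRCC3, RAD54L, FANCA, FANCC, FANCI, FANCL, NBN, TP53BP1, XRCC4 and CHEK2 overlap such a gene on the opposite strand, and whether counting used strand is not given in the sources used here.

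**Figure D5:**
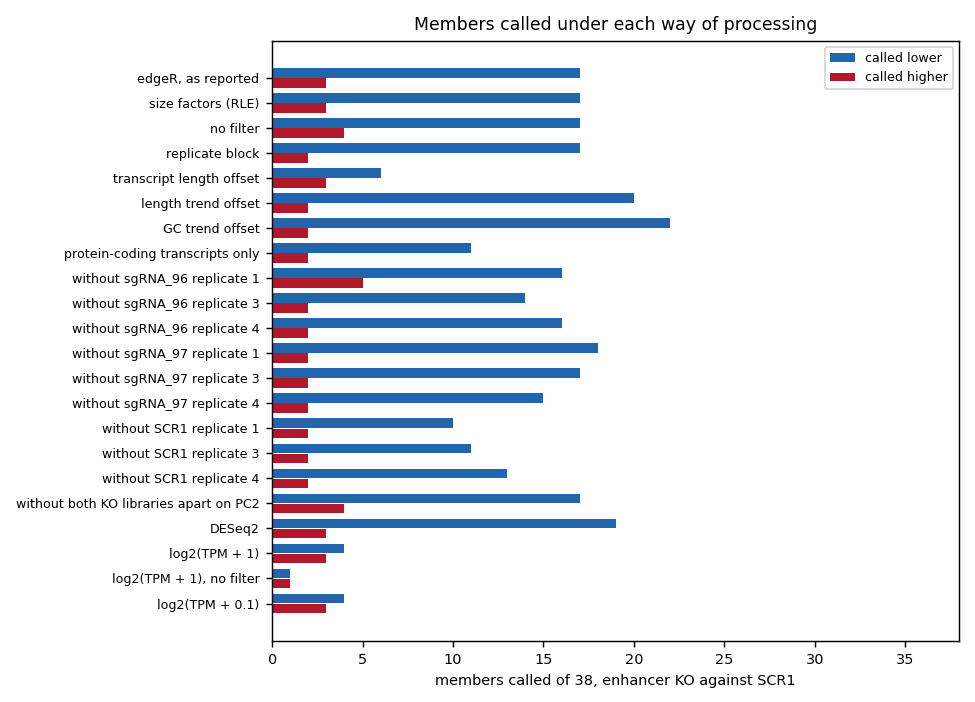
Number of the 38 genes called lower (blue) and higher (red) in the enhancer KO (x axis) under the reported processing and under each of 21 alternatives (y axis). The lower count is 17 as reported, between 10 and 18 when 1 library is left out, 22 with an offset for a GC trend, and 1 in limma on TPM with no filter.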

How the data were processed

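Poly(A) RNA libraries (TruSeq mRNA) from HAL-01 cells were sequenced as paired ends. The authors trimmed the reads, aligned them to the human genome (GRCh38) with STAR and quantified transcripts with Salmon 1.10.1. The deposited tables give estimated counts and TPM for 252835 transcripts in 9 libraries. All transcript identifiers matched GENCODE release 44.

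For each gene, estimated counts of its transcripts were added up and rounded to whole numbers. Genes were kept by filterByExpr (minimum count of 10), and libraries were scaled by TMM. KO (6 libraries) was compared with SCR1 (3 libraries) by the quasi-likelihood test of edgeR 4.0.16, and each guide in a fit with 3 groups. P-values were adjusted by Benjamini-Hochberg over the 14436 genes tested. Fold changes are negative where KO is lower. A member had at least 146 counts in each library. Replicates of a group differed by more than sampling noise (chi-square over degrees of freedom of 4.31 to 8.59 between pairs).

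The members, gene lists and motifs were chosen with earlier results of these data known. By rule, values in each library are given for up to 4 members per route with the smallest adjusted p, and up to 8 called other repair genes, H2AX, PARP1, POLQ and up to 2 genes for each context list are named, except for items that are not reported here. Alternatives were DESeq2 1.42.0, limma 3.58.1 on log2(TPM + 1) or log2(TPM + 0.1), other scaling and filters, offsets for transcript length, length trend and GC trend, protein-coding transcripts only, a replicate block and leaving out each library. A fit without both KO libraries that stood apart on the second principal component was added after the data were seen. The fits were tested on simulated data.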

Additional observations from a re-analysis of the deposited data

Results flagged for a closer look

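Among the 6 KO libraries, 3 of 39 values checked had a library far from the others by Dixon's test, where chance alone picks about 1 in 20 values, or 1.95 of 39. NBN was at 92.7 CPM in sgRNA_96 replicate 4, against 76.6 to 82.3 CPM in the other KO libraries. TOPBP1 was at 151.6 CPM in sgRNA_96 replicate 1, against 170.4 to 177 CPM. MEF2C was at 552.8 CPM in sgRNA_97 replicate 1, against 495 to 510.1 CPM, and was within the range of the controls there.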

How the results depend on the processing

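Each result was computed under 21 alternatives. The replicate block gave 17 members lower and 2 higher (from 17 and 3). It lost the call of FANCL (adjusted p = 0.0573 in edgeR) and changed no other member's call in KO. No sign of pairing by replicate number was seen. Deviations of same-numbered samples from their group means correlated at −0.066 to 0.055 over 9 pairs, and not every sample correlated best with its own number. With 3 libraries in a group this cannot exclude a shared culture or batch. Members called lower in KO were 6 of 38 with the transcript length offset and 11 on protein-coding transcripts only. They were 4 in limma on log2(TPM + 1) or log2(TPM + 0.1) and 1 with no filter on TPM, where 1 was higher. Of all genes tested, 5.17%, 7.45%, 4.36%, 4.3% and 1.14% were lower in these KO fits, in that order, and 1.23% were higher in the last. Members called lower with sgRNA_96 were 4, 6, 0, 0 and 0, and 19 with the GC trend offset. Members called higher with sgRNA_96 were 1 with the length offset, 1 in limma on log2(TPM + 1) or log2(TPM + 0.1) and 0 with no filter. With sgRNA_97 the lower counts were 3, 4, 0, 0 and 0, and 17 with the GC trend offset, and the higher counts were 4 with no filter on counts and 0 in the 3 fits on TPM. Shares of all genes called with single guides under these alternatives are not given here. Other repair genes called lower in KO were 10 of 79 with the length offset, 11 on protein-coding transcripts only, 9 on log2(TPM + 1) or log2(TPM + 0.1) and 6 with no filter on TPM. The shares of all genes lower in these fits are those above. Those called higher were 5 with the GC trend offset (12.0% of all genes tested) and 1 on protein-coding transcripts only (7.73%). They were 1 on log2(TPM + 1) (4.23%) or log2(TPM + 0.1) (4.33%) and 0 with no filter on TPM (1.23%). Leaving out 1 library gave 10 to 18 members lower and 2 to 5 higher in KO, 6 to 11 and 1 to 4 with sgRNA_96, 4 to 11 and 2 to 3 with sgRNA_97, and 13 to 25 and 0 to 6 other repair genes. The cause of these moves was not tested. The median log2 fold change of the members moved by less than the spread between libraries in all alternatives, from −0.16 to −0.12 when 1 library was left out.

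MEF2C passed the threshold with the length trend offset (−0.16), the GC trend offset (−0.16), without both KO libraries apart on the second component (−0.14) and in DESeq2 (−0.12). It ranged from −0.14 to −0.10 when 1 library was left out and passed the threshold without sgRNA_97 replicate 1. Signs that turned were mostly in members not called. BRCA2 was at −0.081 with the length trend offset, −0.045 with the GC trend offset and −0.0028 to 0.080 when 1 library was left out. PALB2 was at 0.030 without both libraries apart on the second component and at −0.047 to 0.0064 with 1 library left out, and RAD51C at −0.26 to 0.020. RAD51D was at 0.073 with the length offset, 0.0021 on protein-coding transcripts only, 0.071 on log2(TPM + 1) with or without the filter, 0.075 on log2(TPM + 0.1) and −0.071 to 0.018 with 1 library left out. NBN was at −0.0088 with no filter, −0.027 with the length offset, −0.038 with the length trend, −0.077 with the GC trend, −0.0036 on protein-coding transcripts only, −0.025 on log2(TPM + 1) with or without the filter, −0.026 on log2(TPM + 0.1) and −0.039 to 0.036 with 1 library left out. On protein-coding transcripts only, FANCL was at −0.22, FANCM at −0.25 and ATR at −0.021. FANCM was at −0.037 with the GC trend, −0.0027 on log2(TPM + 1) with or without the filter and −0.0039 on log2(TPM + 0.1). TP53BP1 was at −0.0089 with the length offset, −0.058 with the length trend, −0.0047 on log2(TPM + 1) with or without the filter and −0.0049 on log2(TPM + 0.1).

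Changes were mostly under 0.3 on the log2 scale with 3 controls, so calls near the threshold rest on single libraries.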
